A study of Schmidtea mediterranea with 28 samples.

Results

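The transcripts described here are 7 planarian RNAs whose closest human protein is one of 5 DEAD-box helicases: *DDX39B* (comp794_c0_seq1 and comp724_c0_seq1), *DDX5* (comp14392_c0_seq1 and comp10179_c0_seq1), *DDX20* (comp6961_c0_seq1), *DDX41* (comp13831_c0_seq1) and *DDX55* (comp15229_c0_seq1). They were taken by identifier and best human hit in the annotation of the study, out of 22944 transcripts measured. Another *DDX5* transcript (comp594_c0_seq1) and another *DDX41* transcript (comp7181_c0_seq1) carry the same human names without belonging to the 7, and they are set beside them where copies are compared. The names are best matches in another species, and whether 2 copies of a name come from 2 genes was not examined.

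DEAD-box helicases are ATP-driven enzymes that pry short RNA duplexes open or strip proteins from RNA, and each usually serves a particular step in the life of an RNA. In human cells DDX39B joins the early spliceosome through U2AF at the branch point and then couples the spliced mRNA to the export machinery, while DDX5 acts in splicing, in transcription and in microRNA processing with Drosha. DDX20 belongs to the SMN complex, which loads Sm proteins on spliceosomal RNAs, DDX41 is found with the catalytic spliceosome, and the yeast relative of DDX55 works on the large ribosomal subunit. Planarian neoblasts are the dividing stem cells that renew all tissues of the worm, and the study asked how RNA regulation differs between them and the cells they produce.

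RNA was from asexual *Schmidtea mediterranea* of the Berlin-1 strain. It was taken from whole worms (9 libraries) or from dissociated cells sorted by dye content: X1 (7 libraries, cells with doubled DNA, rich in neoblasts), X2 (4 libraries, single DNA content and low calcein, rich in neoblast progeny) and Xins (8 libraries, single DNA content and high calcein, differentiated cells). X1, X2 and Xins each held control RNAi (dsRNA coding for GFP), *bruli* RNAi (a gene of the CELF family of RNA-binding proteins), *mbnl* RNAi (several muscleblind genes at once) and wild type worms, which were not part of an RNAi group. X1 and Xins had 2 libraries of each RNAi group, X1 had 1 wild type library and Xins 2, and X2 had 1 library of each kind. Whole worms had 1 control RNAi library and 1 each for *bruli*, *celf*, *esrp*, *mbnl*, *nova*, *ptbp*, *rbfox1* and *rbfoxS* RNAi, the last labelled as *rbfox* genes in the plural. Worms were injected on 3 consecutive days with dsRNA at 1 µg/µl for each target. The X1 gate takes cells that have copied their DNA, so stem cells at other stages of the cycle are not in X1, and no library is a pure cell type.

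In units of 1e6 the counts of a library summed to 12.8 to 35.0. The sorted RNAi libraries numbered 1 (15.8 to 25.7) were all shallower than those numbered 2 (26.1 to 35.0), and the labels do not say what a number stands for. In knocked-down samples the *bruli* transcript stood at 10.1% to 32.5% of its control library, and 3 *mbnl* transcripts together at 18.8% to 56.0%. The 5 neoblast markers (2 transcripts each of *PIWIL1* and *DDX4*, and *bruli*) summed to 11199 to 11739 CPM (counts per 1e6 counts of the library) in unperturbed X1 and 511 to 838 in unperturbed Xins, and all 5 were higher in X1. Of 7 markers of differentiated cells 6 were lower in X1, *RBPMS*, *RBM38*, *MSI2*, *celf-2* and the *ELAVL4* transcripts comp13151 and comp8376. The remaining 1, another *ELAVL4* transcript (comp10994), was higher. The 7 summed to 37.7 to 48.3 CPM in X1 and 165 to 354 in Xins. No marker was at 0 in any library. No source states that 2 libraries of a group came from separate animals, so p-values here measure the spread between libraries.

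All 7 helicase transcripts were higher in unperturbed X1 than in unperturbed Xins, from 2.65-fold (*DDX20*) to 14.5-fold (*DDX55*). The comparison asks which RNAs differ between stem cells and differentiated cells, and it used the 9 sorted libraries of control RNAi and wild type worms (3 X1, 2 X2, 4 Xins). Of all 12665 transcripts tested, 38.0% were called higher in X1 (edgeR's quasi-likelihood test, Benjamini-Hochberg adjusted p under 0.05), and the median log2 difference over all of them was −0.15, against 3.09 over the 7. The libraries are bulk, so fewer cells of a type and less RNA per cell cannot be told apart. All 7 passed the filter on low levels. Folds and log2 differences of X1 over Xins include edgeR's TMM scaling between libraries. Printed CPM use the plain sum of counts and give smaller ratios for the 7. For comp794 the scaled means were 1989 CPM in X1 and 225 in Xins, against plain means of 1666 and 251.

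**Figure D1:**
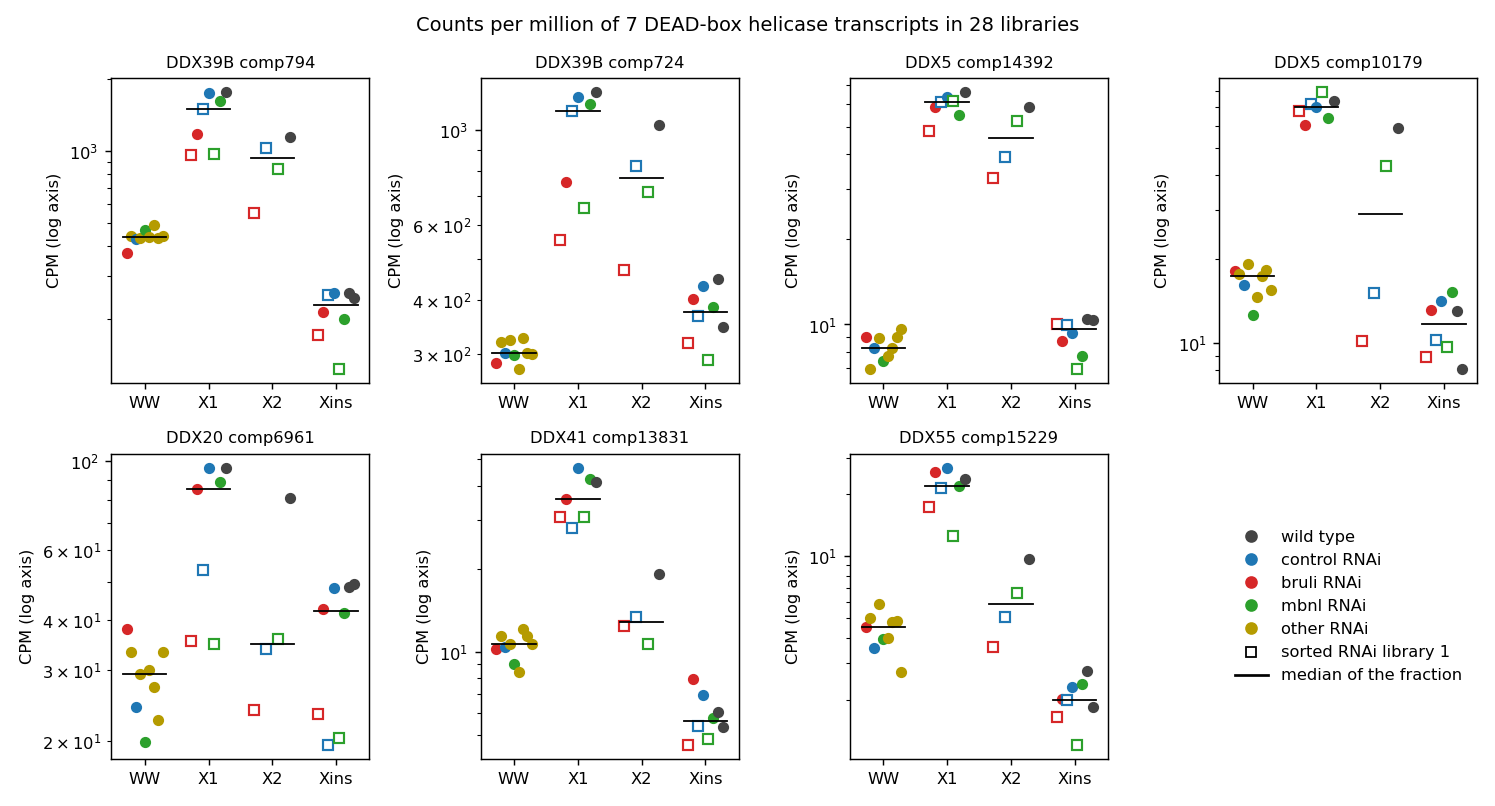
Level of each of the 7 helicase transcripts in every library, in CPM on a log axis, grouped by whole worm (WW), X1, X2 and Xins, 1 point per library coloured by treatment, open squares for sorted RNAi libraries numbered 1 and a line at the median. The X1 points lie above the Xins points in 6 of the 7 transcripts, and in *DDX20* (comp6961) they overlap, from 35.0 to 96.2 CPM in X1 and 19.5 to 49.3 in Xins.

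The *DDX39B* pair, the couplers of splicing and export, was the most abundant. In X1, comp794 stood at 1489.6 and 1750.1 CPM after control RNAi and at 1757 in wild type. In Xins it stood at 252 and 255 CPM after control RNAi and at 255 and 243 in wild type. The groups were far apart, and the log2 difference was 3.14 (standard error 0.13, 8.83-fold, edgeR adjusted p = 6.7e-07). The other copy, comp724, stood at 1106 and 1194 CPM in X1 after control RNAi and at 1226 in wild type, against 367, 432, 448 and 346 CPM in the 4 Xins libraries. It was also separated, with a smaller log2 difference of 1.98 (standard error 0.12, 3.96-fold, edgeR adjusted p = 1.5e-06). How many of all transcripts tested were separated in these unperturbed libraries was not counted.

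The *DDX5* transcripts, whose human match works in splicing and microRNA processing, were 8.43-fold (comp14392) and 8.50-fold (comp10179) higher in X1. For comp14392 the X1 libraries held 61.1 and 63.4 CPM after control RNAi and 66.1 in wild type, and the Xins libraries 9.97, 9.36, 10.5 and 10.4 CPM. The log2 difference was 3.08 (standard error 0.15, edgeR adjusted p = 7.6e-07). The values of comp10179 were 71.9, 70.1 and 73.5 CPM in X1 and 10.3, 14.2, 13.1 and 8.05 CPM in Xins, again without overlap, a separation not counted over all transcripts. Its log2 difference was 3.09, with a larger standard error of 0.37 (edgeR adjusted p = 4.8e-05).

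*DDX41*, the spliceosome-associated helicase, and *DDX55*, the relative of a ribosome assembly factor, were less abundant. In X1, comp13831 (*DDX41*) stood at 28, 46.3 and 41.1 CPM, the first of these in control RNAi 1, and in Xins at 5.40, 6.94, 6.03 and 5.33 CPM. The groups did not overlap, which was not counted over all transcripts, and the log2 difference was 3.11 (standard error 0.20, edgeR adjusted p = 1.8e-06). The *DDX55* transcript comp15229 stood at 21.5, 26.8 and 23.7 CPM in X1 and at 1.99, 2.29, 2.75 and 1.84 CPM in Xins, the largest difference of the 7 (log2 3.85, standard error 0.25, edgeR adjusted p = 1.7e-06). With 420 mappable bases it was also the shortest, and its lowest count was 19 reads, in Xins after *mbnl* RNAi 1.

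*DDX20*, the helicase of Sm protein assembly, differed least between the fractions and varied most with the library number. Its X1 values were 53.4 CPM in control RNAi 1, 96.0 in control RNAi 2 and 96.2 in wild type. Its Xins values were 19.5 CPM in control RNAi 1, 48.1 in control RNAi 2, and 48.4 and 49.3 in wild type. Control RNAi 1 was the lowest library of each fraction, and the log2 difference of X1 over Xins was 1.41 (standard error 0.36, edgeR adjusted p = 0.0054). Within the control RNAi libraries numbered 1 the difference was 1.83, within those numbered 2 it was 1.48, and within wild type 1.36. X1 was thus the higher fraction in each of these sets, and the log2 difference was 1.42 without the control RNAi 1 libraries of all fractions.

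In the 6 pairs of sorted RNAi libraries that share a fraction and a treatment, *DDX20* was higher in the library numbered 2 in all 6, by 1.80-fold to 2.53-fold (median 2.22-fold in CPM). Over all 12494 transcripts of those libraries 29.2% were higher in library 2 in every pair, and 4.82% had a median at or above that of *DDX20*. Medians of the other 6 helicase transcripts lay between 0.99-fold and 1.37-fold, and both *DDX5* transcripts were higher in library 2 in 3 of 6 pairs. Depth moved with the number too, and its part in the *DDX20* values was not tested.

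**Figure D2:**
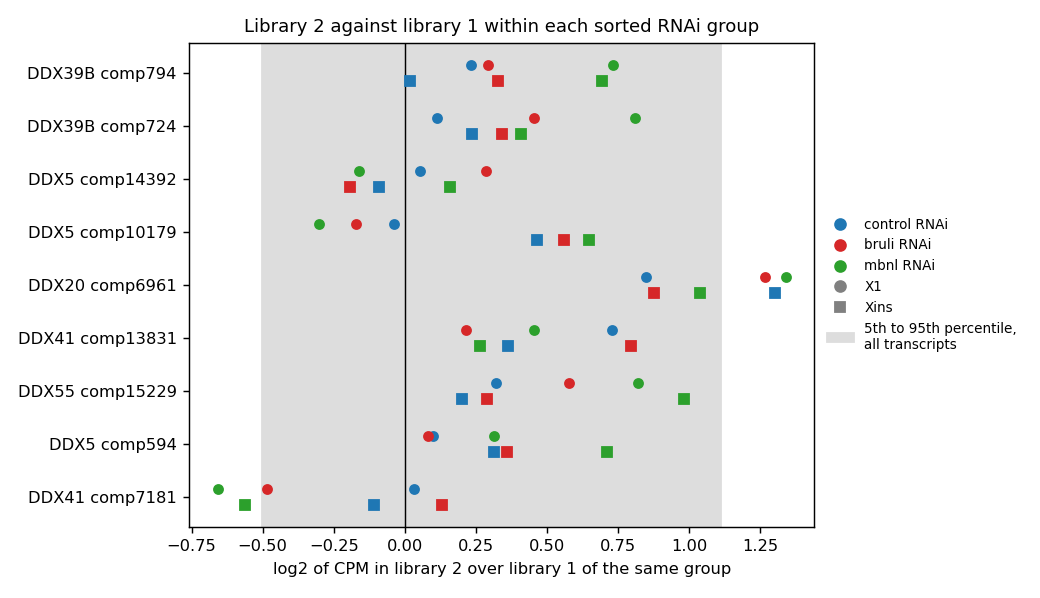
Log2 of CPM in library 2 over library 1 for the 7 helicase transcripts and the other *DDX5* and *DDX41* transcripts, 1 point for each of 6 pairs (control, *bruli* and *mbnl* RNAi in X1, circles, and Xins, squares), with the 5th to 95th percentile of all transcripts' medians in grey. *DDX20* (comp6961) lies between 0.85 and 1.34, to the right of the medians of the other 6 transcripts.

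The libraries of knocked-down worms gave the same fraction difference again, in samples the unperturbed comparison did not use. After *bruli* RNAi 6 of 7 were higher in X1 than in Xins, where 30.2% of the 12494 transcripts tested were, and after *mbnl* RNAi 7 of 7 were, where 32.0% of all were (edgeR, adjusted p under 0.05). The log2 differences were 2.92 and 3.56 for comp794 and 1.30 and 1.95 for comp724 after *bruli* and *mbnl* RNAi. They were 2.92 and 3.53 for comp14392, 3.00 and 3.10 for comp10179, 2.86 and 3.33 for comp13831, and 3.98 and 3.81 for comp15229, all called. With limma on log2(cRPKM + 1), 5 of 7 were called after *bruli* RNAi, where neither *DDX20* nor comp724 was (0.86 for comp724, adjusted p = 0.12), and 6 of 7 after *mbnl* RNAi, where *DDX20* was not (0.96, adjusted p = 0.33), beside 20.9% and 21.8% of all transcripts. *DDX20* stood at 1.31 after *bruli* RNAi (standard error 0.58, edgeR adjusted p = 0.070), where within-number values were 0.98 and 1.49, and DESeq2 called it at 1.22 (adjusted p = 0.039). After *mbnl* RNAi it stood at 1.56 (standard error 0.58, edgeR adjusted p = 0.036), with 1.22 and 1.73 within numbers. That call was lost when any of 4 single libraries was left out, *mbnl* RNAi 2 of X1, *mbnl* RNAi 1 or 2 of Xins, or *bruli* RNAi 2 of Xins, at adjusted p = 0.25, 0.18, 0.056 and 0.050.

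Over all treatments together, the 7 X1 libraries lay above all 8 Xins libraries in CPM for 6 of the 7 transcripts, and 22.9% of all transcripts tested did so. *DDX20* was the exception. Its X1 values ran from 35.0 through a median of 85.4 to 96.2 CPM and its Xins values from 19.5 through 42.2 to 49.3, so the X1 libraries of *bruli* RNAi 1 and *mbnl* RNAi 1, at 35.4 and 35.0 CPM, lay within the Xins range.

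X2, the fraction rich in neoblast progeny, lay between X1 and Xins for every one of the 7 transcripts by its fitted level. How many of all 12665 transcripts did so, by fitted level or in every library, was not counted. By single libraries *DDX20* overlapped, with X2 wild type at 81.0 CPM above X1 control RNAi 1 at 53.4. The X2 values of comp794 were 1033 CPM in control RNAi and 1146 in wild type, and those of comp724 were 826 and 1025, all below the unperturbed X1 values and above the Xins ones. Against X1 the log2 differences were −0.94 for comp794 (standard error 0.15, edgeR adjusted p = 0.0014) and −0.68 for comp724 (standard error 0.15, edgeR adjusted p = 0.0059). The call of comp724 was lost after quantile normalisation (−0.23, limma adjusted p = 0.32), with limma on log2(cRPKM + 1) (−0.41, adjusted p = 0.20) and without the control RNAi 1 libraries (−0.65, edgeR adjusted p = 0.061). *DDX55* was lower by the widest margin, at 5.05 and 9.63 CPM in X2 (log2 −2.06, standard error 0.30, edgeR adjusted p = 0.00077), followed by comp13831 (*DDX41*) at 13.3 and 19.2 CPM (log2 −1.58, standard error 0.25, edgeR adjusted p = 0.0011). In all, 6 of 7 were called lower in X2 than in X1, where 21.4% of all 12665 transcripts were.

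Both *DDX5* transcripts varied within X2. The level of comp14392 was 39.1 CPM in control RNAi and 58.7 in wild type, and that of comp10179 was 15.1 and 59.1, a 3.73-fold spread between 2 unperturbed libraries. Against X1 they were lower by log2 −0.72 (standard error 0.18, edgeR adjusted p = 0.010) and −1.34 (standard error 0.44, edgeR adjusted p = 0.033). Without the X2 control RNAi library the differences were −0.54 (edgeR adjusted p = 0.085) and −0.71 (edgeR adjusted p = 0.084), and neither was called. The call of comp10179 was also lost without X1 control RNAi 1, X1 control RNAi 2, X1 wild type or Xins wild type 1, at edgeR adjusted p of 0.057, 0.059, 0.065 and 0.052. *DDX20*, at 33.9 and 81.0 CPM in X2, was not called against X1 (log2 −0.87, standard error 0.44, edgeR adjusted p = 0.14), and was called at −0.66 without the control RNAi 1 libraries (edgeR adjusted p = 0.041) and at −0.76 with those libraries as a term (edgeR adjusted p = 0.0038). Over the 7 transcripts, 4 were called lower without the control RNAi 1 libraries, comp794 and the *DDX20*, *DDX41* and *DDX55* transcripts, where 14.6% of 13222 transcripts were, and 7 with them as a term, where 27.1% of all were. Both alternatives were chosen after the data were seen.

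X2 was called higher than Xins for 6 of 7 transcripts, where 29.3% of all transcripts were called higher in X2. The log2 differences were 2.20 for comp794, 1.30 for comp724, 2.35 for comp14392, 1.75 for comp10179, 1.54 for comp13831 and 1.79 for comp15229, with edgeR adjusted p from 9.2e-05 to 0.0041. *DDX20* was at 0.54 (standard error 0.40, edgeR adjusted p = 0.26), and at 0.77 without the control RNAi 1 libraries (edgeR adjusted p = 0.012). The 3 comparisons share libraries and are not separate evidence. Neoblast markers moved with X2 as well, at 3663 CPM in control RNAi and 5167 in wild type, and their part in the spread within X2 was not tested.

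**Figure D3:**
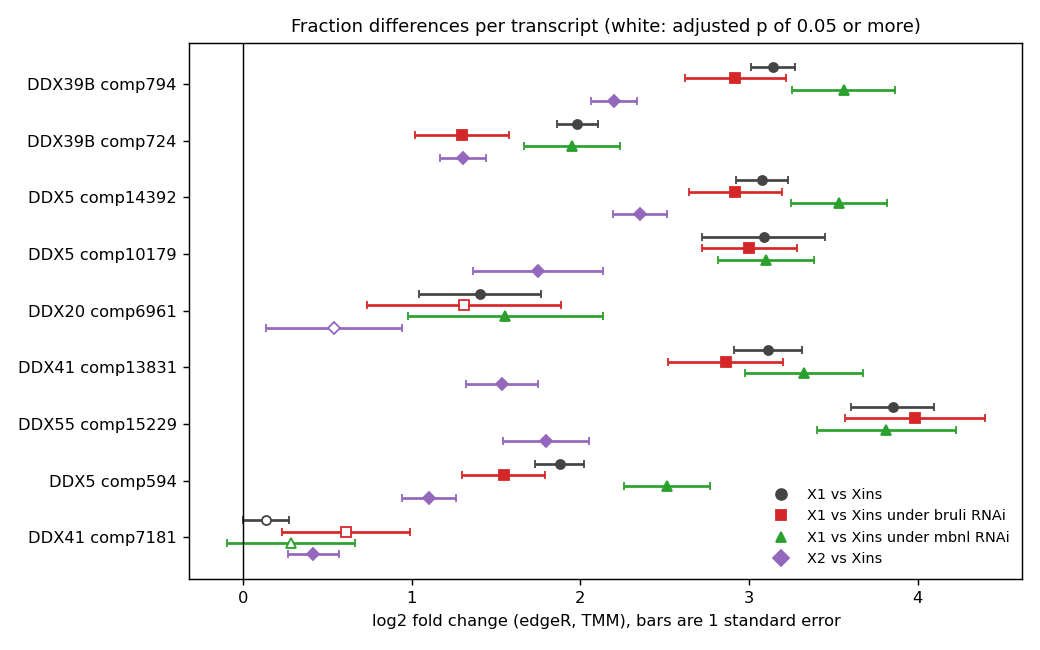
Log2 difference of each helicase transcript, and of the other *DDX5* and *DDX41* transcripts, for X1 over Xins in unperturbed, *bruli* RNAi and *mbnl* RNAi libraries and X2 over Xins in unperturbed ones (edgeR estimates, bars are 1 standard error, white symbols were not called). In unperturbed libraries X1 over Xins runs from 1.41 to 3.85 in the 7 transcripts and X2 over Xins from 0.54 to 2.35, while comp7181 (*DDX41*) is at 0.14 and 0.42.

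Copies that share a human name did not share a fraction pattern in every case. In cRPKM, the authors' reads per kilobase of mappable positions scaled to mapped reads, which sets transcripts of different length on 1 scale, comp794 made up a median 57.4% of the summed *DDX39B* level in X1, 51.9% in X2, 33.7% in Xins and 57.1% in whole worms. The log2 ratio of comp794 to comp724 (cRPKM + 1) was 0.45 ± 0.12 (SD, n = 7) in X1 and −0.94 ± 0.23 (SD, n = 8) in Xins, without overlap. The difference of 1.39 gave p = 0.0015 in a two-sided exact permutation test within treatments, the smallest p its 648 arrangements allow (adjusted over 5 pairs 0.0019). The more abundant copy was thus comp794 in X1 and comp724 in Xins.

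For *DDX41* the contrast between copies was wider. The copy outside the 7, comp7181, stood at 40.1, 40.9 and 40.3 CPM in the unperturbed X1 libraries and at 52.9, 49.1, 48.9 and 45.0 in Xins. Its log2 difference was 0.14 in edgeR (standard error 0.13, adjusted p = 0.36) and −0.28 with limma on log2(cRPKM + 1), so its direction depended on the scaling, and in CPM the Xins values lay above the X1 ones. In X2 it was at 62.3 and 60.6 CPM, higher than in Xins by log2 0.42 in edgeR (adjusted p = 0.036) and by 0.25 with limma on log2(cRPKM + 1), which was not called (adjusted p = 0.24). The same call was lost without X2 control RNAi 1, Xins control RNAi 2 or either Xins wild type library, at edgeR adjusted p of 0.079 to 0.20. The log2 ratio of comp13831 to comp7181 was 0.21 ± 0.48 (SD, n = 7) in X1 and −2.30 ± 0.29 (SD, n = 8) in Xins, a difference of 2.51 (exact permutation test, two-sided, p = 0.0015, adjusted over the pairs 0.0019). Of the summed *DDX41* level comp13831 made up a median 54.7% in X1, 23.1% in X2, 15.1% in Xins and 27.9% in whole worms.

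Most of the *DDX5* level came from comp594, the copy outside the 7, at 83.6% to 96.8% of the sum over all libraries. It stood at 1959 and 2097 CPM in X1 control RNAi and 2115 in wild type, and at 628 to 844 CPM in unperturbed Xins, higher in X1 by log2 1.88 (standard error 0.15, edgeR adjusted p = 4.1e-06). The 2 rarer copies made up more of the sum in X1. The ratio of comp10179 to comp594 was higher in X1 by 1.06 and that of comp14392 to comp594 by 0.95 (exact permutation test, two-sided, p = 0.0015 each, adjusted over the pairs 0.0019). The ratio of comp10179 to comp14392 differed by 0.11, with a mean of 1.66 ± 0.14 (SD, n = 7) in X1 and 1.55 ± 0.40 (SD, n = 8) in Xins, and the ranges overlapped (exact permutation test, two-sided, p = 0.50). At a pseudocount of 0.1 that last difference was −0.05. Copies with near-identical stretches could divide reads between them, which was not tested.

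**Figure D4:**
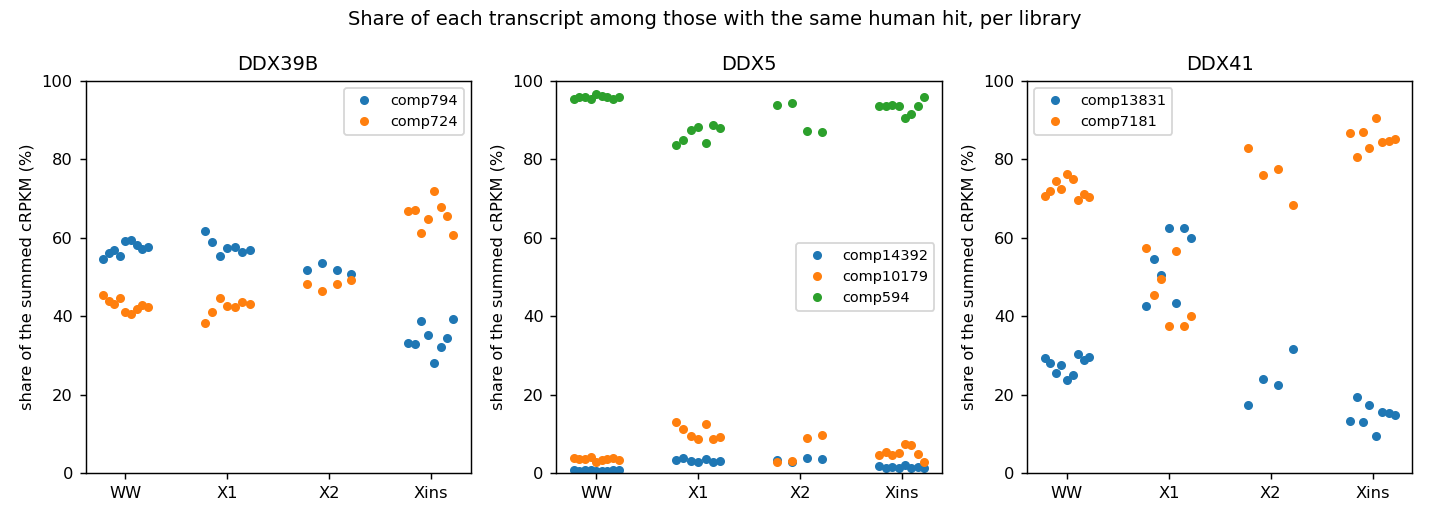
Share of each transcript in the summed cRPKM of its human name (*DDX39B*, *DDX5* or *DDX41*), in percent on an axis from 0 to 100, 1 point per library by fraction. In *DDX39B* comp794 falls from a median 57.4% in X1 to 33.7% in Xins, and in *DDX41* comp13831 falls from 54.7% to 15.1%.

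By level per length the order of the 9 transcripts differed between fractions. In unperturbed X1 the mean was 995 cRPKM for comp794, 886 for comp594 and 762 for comp724, and neighbours among these overlapped in their libraries. After a gap followed comp10179 at 91.5, comp15229 at 54.8, *DDX20* at 45.4, comp13831 at 29.5, comp14392 at 29.4 and comp7181 at 20.8, where comp10179 and comp7181 stood clear of their neighbours and those between overlapped. In unperturbed Xins the order began with comp594 at 325, comp724 at 261 and comp794 at 151, then comp7181 at 25.3, *DDX20* at 23.2 and comp10179 at 14.7, where comp594 overlapped comp724, and *DDX20* overlapped both comp7181 and comp10179. The last places went to comp15229 at 5.11, comp14392 at 4.68 and comp13831 at 4.53 cRPKM, which overlapped. The cRPKM of the sorted RNAi libraries numbered 1 were scaled to totals 1.16 to 1.30 times their summed counts, and those of the other libraries were not.

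In whole worms, which mix all cells, the highest of the 9 libraries was 1.18 to 1.52 times the lowest for 5 of the 7 transcripts, 1.92 times for *DDX20* and 2.15 times for *DDX55*. The lowest, median and highest values were 374, 438 and 491 CPM for comp794 and 276, 300.1 and 326 for comp724. The *DDX5* transcripts ran from 6.94 through 8.26 to 9.61 CPM (comp14392) and from 12.6 through 17.4 to 19.1 (comp10179). *DDX20* ran from 19.8 through 29.4 to 38.1, comp13831 from 8.46 through 10.7 to 12 and comp15229 from 2.73 through 4.49 to 5.87 CPM. Against the single control library none of the 56 values (7 transcripts in 8 knockdowns) passed 0.7 in size on the log2 scale of cRPKM + 1, where 2.57% of all transcript values did. The highest was *DDX55* at 0.66 after *esrp* RNAi. The lowest was comp10179 (*DDX5*) after *mbnl* RNAi at −0.34, and *DDX55* after *rbfoxS* RNAi was also at −0.34. With 1 library each there is no replicate check.

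After *bruli* RNAi both *DDX39B* transcripts were lower in X1 in both numbered libraries, but none of the 7 was called. In X1, comp724 was at 553 and 758 CPM after *bruli* RNAi against 1106 and 1194 in control RNAi, and comp794 at 965 and 1183 against 1489.6 and 1750.1. Knockdown and control libraries did not overlap in either copy. With so few libraries in a group such a separation can arise by chance. The share of all 12494 transcripts separated in this way was not counted. The log2 difference of comp724 was −0.87 (standard error 0.28, edgeR adjusted p = 0.45), with −0.98 and −0.76 within numbers, and that of comp794 −0.64 (standard error 0.28, edgeR adjusted p = 0.68), with −0.61 and −0.67. Of the 7 transcripts 0 were called by edgeR, where 0.0% of all 12494 were. Both *DDX39B* transcripts had an unadjusted p under 0.05 in edgeR's test, as did 890 of all 12494. DESeq2 called comp724 alone among the 7 (adjusted p = 0.028), beside 109 of all 12494. The other 5 lay between −0.38 and −0.18.

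Neoblast markers moved in the same libraries. Without *bruli* itself, the other 4 markers summed to 4546 and 4607 CPM in X1 after *bruli* RNAi against 10406 and 10642 in control RNAi, and to 1619 against 3357 in X2. The 5 neoblast markers, *bruli* included, had a median log2 difference of −1.36 in X1 (−2.94 to −0.63), and the 7 differentiated markers one of 0.71 (−0.33 to 1.24), with 0 of 5 and 0 of 7 called by edgeR. Together the 7 were at 40.3 and 44.0 CPM against 37.7 and 46.6, a sum of which comp10994 (*ELAVL4*), the marker that was higher in X1 than in Xins, made up 20.7 and 32.9 CPM after *bruli* RNAi and 26.0 and 38.7 in control RNAi. The other 6 summed to 19.6 and 11.1 CPM after *bruli* RNAi against 11.7 and 7.86 in control RNAi. The part of these shifts in the *DDX39B* values was not tested.

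In Xins after *bruli* RNAi comp724 was at 317 and 402 CPM against 367 and 432, and comp794 at 171 and 214 against 252 and 255 (log2 −0.14 and −0.39, standard error 0.27 and 0.28). For comp724 the knockdown and control ranges overlapped, and for comp794 they did not. Here too the share of all 12494 transcripts without overlap was not counted. The effect in X1 minus that in Xins was −0.73 for comp724 (standard error 0.39) and −0.25 for comp794 (standard error 0.39), with edgeR adjusted p = 1.0 for both, so a difference between the fractions was not shown. Neither the Xins comparison nor this difference called any of the 7 (0.0% of all transcripts in each), and 0 had an unadjusted p under 0.05 in either by edgeR. Of all 12494 transcripts 79 did in the Xins comparison and 343 in the difference. DESeq2 called 0 of 7 in both, beside 7 of the 4501 transcripts it gave an adjusted p in Xins and 7 of 12494 for the difference.

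After *mbnl* RNAi the 2 libraries of a group differed. In X1, comp794 was at 972 CPM in *mbnl* RNAi 1 and 1615 in *mbnl* RNAi 2, and comp724 at 656 and 1149, so that the first lay below the controls and the second near them. The log2 differences were −0.23 for comp794 and −0.25 for comp724 (standard error 0.28 and 0.27). In Xins comp794 was at 123 and 199 CPM, below both controls, with a log2 difference of −0.62 (standard error 0.28, edgeR adjusted p = 1.0). The share of all 12494 transcripts that lay below both controls was not counted. The other 5 transcripts lay between −0.39 and 0.14 in X1 and between −0.33 and 0.09 in Xins. For *mbnl* RNAi in X1, in Xins and for the difference between them 0 of 7 were called by edgeR (0.0% of all transcripts in each), and 0 had an unadjusted p under 0.05. Of all 12494 transcripts 212, 202 and 107 had one, in that order. DESeq2 called 0 of 7 in each as well, beside 1, 2 and 0 of all 12494 in the same order.

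**Figure D5:**
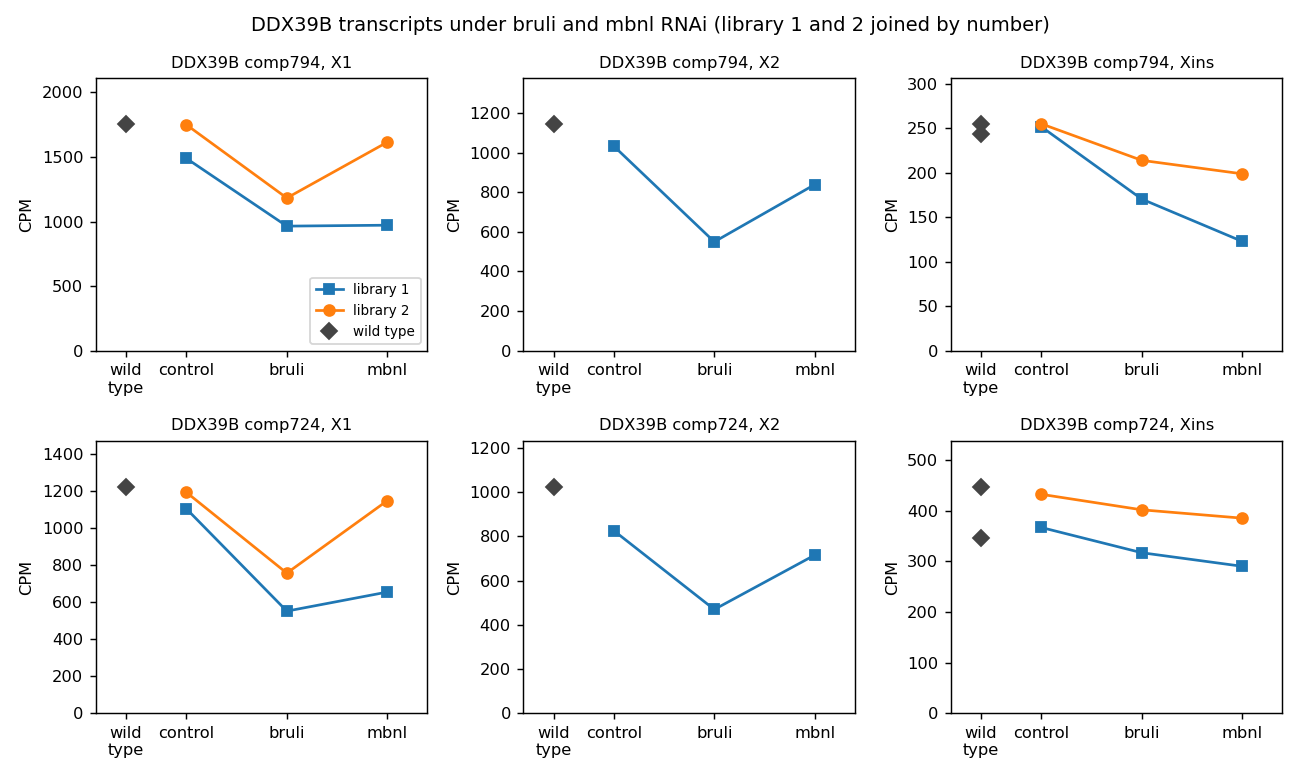
CPM of comp794 and comp724 in the sorted libraries by treatment and fraction, 1 point per library, with lines joining libraries of the same number as a guide to the eye, wild type as diamonds, and axes that start at 0 and differ between panels. In X1 the *bruli* RNAi points lie at 965 and 1183 (comp794) and 553 and 758 (comp724), below both control RNAi points, while *mbnl* RNAi 2 lies at 1615 and 1149.

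The X2 knockdowns have 1 library each. After *bruli* RNAi comp794 was at 549.8 CPM against 1033 in the control and comp724 at 469.5 against 826, and on the log2 scale of cRPKM + 1 they were at −0.86 and −0.77. These were 2 of 7 below −0.7, where 5.23% of all 10459 transcripts were. After *mbnl* RNAi comp10179 was at 43.1 CPM against 15.1 (log2 1.46), 1 of 7 above 0.7, where 2.65% of all were. Wild type X2, at 59.1 CPM, lay above both of those libraries. With the mean of the control and wild type libraries as the reference comp10179 was at 0.01 after *mbnl* RNAi and −1.95 after *bruli* RNAi, so that value rested on the single control library. The other values ranged from −0.50 to 0.41.

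Genes of the same steps were given by lists from the annotation of the study. Of 14 mRNA export and exon junction transcripts, the partners of DDX39B in export, 14 were higher in X1 than in Xins (median log2 2.18), among them the export adaptor *ALYREF* at 2.73 and *SARNP* at 2.67, the junction helicase *EIF4A3* at 2.39 and *RNPS1* at 2.36. The U2AF and branch point list, where DDX39B acts first, had 6 of 8 tested transcripts higher and 1 lower (median 2.05). There *SF3B4* was at 2.79, the branch point reader *SF1* at 2.41 and *U2AF1* at 2.24, and *SF3B6*, a protein at the branch point, was at −4.36 (standard error 0.74). That value rests on low levels, 0.069 to 0.14 CPM in unperturbed X1 and 1.49 to 4.81 in unperturbed Xins. Both lists stood above the −0.15 of all transcripts, as did most lists of RNA processing genes here.

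All 7 Sm core transcripts, the cargo of the complex of DDX20, were higher in X1 with a median of 2.93, from *SNRPD2* at 3.09, *SNRPN* at 3.06 and *SNRPD1* at 3.03 to *SNRPF* at 2.93 among the 4 with the widest difference. *DDX20* itself, at 1.41, lay below all 7. Of the 19 ribosome assembly transcripts 18 were higher (median 2.01), led by the helicases *DHX37* at 2.73, *DDX56* at 2.67, *SKIV2L2* at 2.57 and *DDX52* at 2.55, all below the 3.85 of *DDX55*. The list of DDX5 relatives and parts of the microprocessor included comp594, the *DDX5* copy outside the 7, at 1.88. Of its 4 transcripts 4 were higher (median 1.47). *DGCR8* was at 1.56, *DDX17*, the nearest human relative of DDX5, at 1.39 and *DROSHA*, the nuclease that cuts primary microRNAs, at 0.79.

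Spliceosomal helicases, the company of DDX41, moved in both directions. Of 14 there were 9 higher and 4 lower in X1 (median 1.19), and *DHX8*, a helicase that releases spliced mRNA, was the best match of 6 transcripts, from 3.70 (comp8001) to −2.24 (comp12329) and −2.47 (comp7940). The other 3, named after their values were seen, were at 1.28 (comp8181), −0.31 (comp5357) and −1.56 (comp11801). *DHX15*, which takes spent spliceosomes apart, was at 2.41 (comp13370). Another transcript with that best match, also named after its value was seen, was at 0.16 and not called (comp5858, edgeR adjusted p = 0.54). In the core spliceosome list 76 of 77 were higher (median 2.02). Among the other DDX and DHX helicases 35 of 43 tested were higher and 4 lower (median 1.60), led by the germ granule helicase *DDX4* at 4.23 (comp1985) and 3.78 (comp2082). Ranked by log2 among all 50 helicases tested, the 7 transcripts held places 2, 5, 6, 7, 8, 22 and 30, the last 2 being comp724 and *DDX20*. Several lists share transcripts, and 33 of the 46 other helicases stand in another list.

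Over the 28 libraries the closest of 328 other annotated transcripts, by Pearson's r of log2(cRPKM + 1), was *EIF4A3* for comp794 (0.99), followed by the RNA-binding protein *TIA1* (0.99). For comp724 the closest were *ALYREF* (0.96) and the transcript with KEGG number K12847 (0.94), for comp14392 *RBM39* (0.99) and *HNRNPF* (0.98), and for comp10179 the transcript K12869 (0.94) and *FXR2* (0.94). *DDX20* was closest to *DICER1* (0.95) and *LARP7* (0.91). Both comp13831 and comp15229 were closest to *DDX3X* (0.97 each), followed by K12845 (0.97) and *DDX56* (0.97). The points share their fractions and scaling, so these values describe the libraries and are no test. Among the 7 themselves r of log2 CPM was highest between comp13831 and comp15229 at 0.97, and the lowest values, from 0.62, involved *DDX20*.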

How the data were processed

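The authors mapped reads with Bowtie to a de novo transcriptome and used vast-tools to deposit, per library and transcript, a raw count and a cRPKM (RPKM corrected for mappable positions). The sources used here do not give versions of either. The deposited counts had 48924 blank cells, all with a cRPKM of 0, read as 0. Members, lists and tests were chosen with earlier results of these data known.

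Counts were tested with edgeR 4.0.16 (TMM scaling, quasi-likelihood, two-sided, R 4.3.3) over all transcripts with a mean log2(cRPKM + 1) above 1.5, with Benjamini-Hochberg adjustment and a threshold of 0.05. Fits held the 9 unperturbed sorted libraries in 3 groups, or the 12 sorted RNAi libraries of X1 and Xins in 6 groups of 2. Knockdowns with 1 library used log2((cRPKM + 1)/(control + 1)) and a threshold of 0.7 without a test. CPM use the plain sum of counts. The tests were checked on simulated counts.

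Alternatives were DESeq2 size factors, DESeq2 1.42.0, limma 3.58.1 on quantile-normalised counts and on log2(cRPKM + 1 or 0.1), no filter, a replicate block and leaving out each library. Named were the members, other copies, up to 4 transcripts per list with the largest difference in X1 against Xins, and 2 nearest transcripts per member. No sequences were used here.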

Additional observations from a re-analysis of the deposited data

Results flagged for a closer look

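In the 4 unperturbed Xins libraries *DDX20* (comp6961) had 1 library far from the others: control RNAi 1 stood at 19.5 CPM and the others between 48.1 and 49.3, so that the gap to the nearest was 0.96 of the whole range. Of 9 transcripts examined in this way it was the only one, where chance alone marks about 1 group in 20. The same library number was low for *DDX20* in X1.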

How the results depend on the processing

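Of the values of single members under the alternatives 883 kept direction and side of the threshold. Of the others 27 lost a call, 17 of them in X2 against X1, 8 gained one, 4 turned in direction and 2 moved otherwise. The 883 include knockdown values that no setting called. X1 over Xins was called for 7 of 7 in every alternative except limma on cRPKM, where *DDX20* was not (0.98 with a pseudocount of 1, adjusted p = 0.087). Of all 12665 transcripts 5624 were called higher after quantile normalisation, 4906 with DESeq2 size factors, and 3600 and 3583 with limma on cRPKM. DESeq2 called 4981 of 12626 higher, and the fit without a filter 6863 of 22798. Without the control RNAi 1 libraries 5016 of 13222 were, and with them as a term 5161 of 12665. Leaving out single libraries gave 4507 of 12810 to 4966 of 12646.

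The number of members called lower in X2 than in X1 was 4 after quantile normalisation, where 18.9% of all transcripts were, 3 with limma on log2(cRPKM + 1), where 11.3% were, and 3 with a pseudocount of 0.1, where 11.6% were.

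For *bruli* RNAi in X1 all transcripts called numbered 0 by edgeR, 2 after quantile normalisation, 3 and 3 with limma on cRPKM and 109 with DESeq2, which called 1 member. DESeq2 called 1 in X1 and 2 in Xins after *mbnl* RNAi, 7 in Xins after *bruli* RNAi and 7 for the difference between fractions, and leaving out single libraries gave 0 to 3 in Xins after *bruli* RNAi. The cause was not tested.

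With a replicate block *bruli* RNAi in X1 had 128 calls, none of a member, and X1 over Xins had 9682 calls after *bruli* RNAi (8093 without) and 10027 after *mbnl* RNAi (8543 without). *DDX20* was then called after *bruli* RNAi (1.23, edgeR adjusted p = 0.00045), as the last of 7, the only call of a member that the block changed. After *mbnl* RNAi *DDX20* stayed called with the block (1.48, standard error 0.20, edgeR adjusted p = 0.00014). Deviations of same-numbered libraries correlated at 0.04 to 0.75 (median 0.49) over 15 pairs of groups, not all over 0.1, so the numbers were not taken to pair libraries.

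With unperturbed libraries only, where an exact permutation test cannot go below 0.0556, the ratios of copies differed by 1.15 (comp794/comp724), 1.14 (comp10179/comp594), 0.96 (comp14392/comp594) and 2.70 (comp13831/comp7181), each at 0.069 adjusted. At a pseudocount of 0.1 comp10179/comp14392 was −0.048, and 1 whole worm value passed 0.7 (*DDX55* after *esrp* RNAi, 0.71). With the X2 wild type library in the reference 6 of 14 values passed, all 6 lower. For these last 2 counts the share of all transcripts was not computed.

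Direction turned for comp7181 in X1 over Xins (−0.28 and −0.29 with limma on cRPKM). Leaving out single libraries moved comp794 after *mbnl* RNAi in X1 between −0.56 and 0.045, comp724 between −0.63 and 0.049, and the difference between fractions of comp724 after *mbnl* RNAi between −0.45 and 0.23. The highest of the other 5 members then lay between −0.21 and 0.19 after *bruli* RNAi in X1 and between −0.15 and 0.59 after *mbnl* RNAi in Xins. With limma on cRPKM it was −0.0049 and −0.0050 after *mbnl* RNAi in X1 and −0.060 and −0.067 in Xins.

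Of transcripts called, 46.5% were higher in X2 than in Xins and 60.9% after quantile normalisation, 54.2% higher in X2 than in X1 and 66.9% or 70.8% with limma on cRPKM, and 46.7% and 46.9% higher in X1 than in Xins after *bruli* and *mbnl* RNAi, against 35.9% and 35.8% with limma. The median over all transcripts in X1 over Xins moved from −0.15 to 0.21 (quantile) and −0.51 (limma). The lowest count of a member was 19 reads (*DDX55*).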
